A study of Sus scrofa with 36 samples.

Results

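The endoplasmic reticulum stress genes are 10 genes chosen by symbol, HSPA5, DNAJB9, HSP90B1, CALR, PDIA4, SDF2L1, HERPUD1, DDIT3, ATF4 and XBP1. Of these, 7 were matched to a row of the deposited count table, which holds 25880 genes, 14857 of them with a symbol. SDF2L1, DDIT3 and ATF4 were not matched to an identifier and were not analysed here. All 7 matched genes passed the filter on low counts. Their levels were read in RNA sequencing libraries from the left ventricle of 24 Yorkshire-landrace pigs, of which 12 had branches of the left anterior descending and left circumflex coronary arteries tied permanently and 12 had sham surgery. An infarcted heart was sampled in its infarct zone (IZ) and again in its border zone (BZ), while sham hearts were sampled once, in the front wall of the left ventricle, so that 36 libraries fell into 12 groups of 3.

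Young groups had surgery when 2 days old and Old groups when 14 days old. Early groups were sampled 1 day after surgery and Late groups 7 days after it. Harvest thus fell at an age of 3 days for Young Early, 15 for Old Early, 9 for Young Late and 21 for Old Late pigs. After surgery every pig was given the analgesic ketoprofen and the antibiotic enrofloxacin, per the labels. No blood flow was restored, and the sham tissue came from other pigs than the IZ and BZ. Each IZ and BZ pair shared a pig by the titles. For 1 of the 12 pairs, with Old Late BZ replicate 3, another label of that library names a different pig. The comparisons asked how each zone differed from sham tissue of the same age and time, and whether that difference changed with age at surgery, with time after it, or between the zones of a heart.

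Secreted and membrane proteins fold in the endoplasmic reticulum. When unfolded proteins build up there, the sensors IRE1 (gene ERN1), PERK (EIF2AK3) and ATF6 start the unfolded protein response, which raises chaperones and degradation factors and slows protein synthesis. IRE1 splices the XBP1 mRNA, and PERK favours translation of ATF4, which drives DDIT3. In heart muscle the response is known to be started by lack of oxygen and nutrients, and cells that secrete much collagen or antibody carry high levels of the same chaperones. Gene counts hold total XBP1 mRNA and do not tell its spliced from its unspliced form.

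Positions are those of the count table, whose genome build is not given in the sources used here. HSPA5 (ENSSSCG00000005601) lies on the minus strand of chromosome 1 from 265930042 to 265947997, and HSP90B1 (ENSSSCG00000000849) on the minus strand of chromosome 5 from 80512208 to 80520068. CALR (ENSSSCG00000013746) lies on the minus strand of chromosome 2 from 66097914 to 66102102, and PDIA4 (ENSSSCG00000015453) on the plus strand of chromosome 9 from 109252011 to 109280324. XBP1 (ENSSSCG00000030996) lies on the minus strand of chromosome 14 from 46008520 to 46016631. DNAJB9 (ENSSSCG00000016653, minus strand of chromosome 18 from 36578516 to 36584732) shares exon bases with THAP5 on the other strand, and HERPUD1 (ENSSSCG00000040663, plus strand of chromosome 6 from 18877492 to 18916601) shares exon bases with SLC12A3 on the same strand. Reads in the bases shared by HERPUD1 and SLC12A3 cannot be assigned to either gene by strand. For DNAJB9 and THAP5 the strand setting of the counting is not given in the sources used here. Whether their shared reads were separated is therefore not known.

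The median library held 22.55 M counts, in a range of 8.1 to 39.8 M. RNA integrity numbers ran from 6.3 to 8.4, and the share of counts from mitochondrially encoded genes ran from 9.8% to 44.1%. Library preparation batch followed the groups: all Young Early libraries were batch 1, all Old Early batch 2 and all Old Late batch 3, and only the Young Late groups held libraries of 2 batches. In the Early comparisons of age a batch term could therefore be estimated through the Young Late libraries alone, and in the Late comparisons age at surgery and batch 3 cannot be told apart. Among the Old groups, time after surgery likewise cannot be told apart from batch (2 for Early and 3 for Late). Levels below are counts for each M counts of the library, scaled with TMM factors (CPM), in the order of replicates 1, 2 and 3, and differences are log2 fold changes ± SE of the fit. A gene was called when its p from edgeR's quasi-likelihood test was under 0.05 after Benjamini-Hochberg adjustment across every gene in the fit. The libraries of a group came from separate pigs, per the labels. All 9 cardiomyocyte markers found of 12 listed (such as TNNT2, MYL2 and ACTC1) had counts in every group.

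Some libraries stood apart in these genes. Young Early BZ replicate 2, the deepest library at 39.8 M counts, had the lowest mitochondrial share of its group (10.1%, against 26.3% and 29.9%) and the highest summed cardiomyocyte markers (181130 CPM, against 98120 and 69538). It held the highest CALR level of all 36 libraries and high HSP90B1 and PDIA4, yet the lowest HSPA5 and DNAJB9 of its group. Young Early IZ replicate 2, from the same pig, held the highest HSPA5 and HERPUD1 of all 36 libraries. Its RNA integrity number was the lowest of its group (6.5, against 7.3 and 7.8). Its mitochondrial share was the highest (40.8%, against 22.3% and 22.6%). Young Late Sham replicate 2, the shallowest library at 8.1 M counts, held the lowest HSP90B1, CALR and PDIA4 of all 36. It was also the only batch 1 library of its group, so its depth and batch cannot be told apart. Values without the BZ and sham libraries named here are given beside the Young Early BZ and Young Late results. Leaving out each library in turn gave Young Early IZ differences from sham of 2.29 to 2.79 for HSPA5 and 1.03 to 1.58 for HERPUD1.

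**Figure D1:**
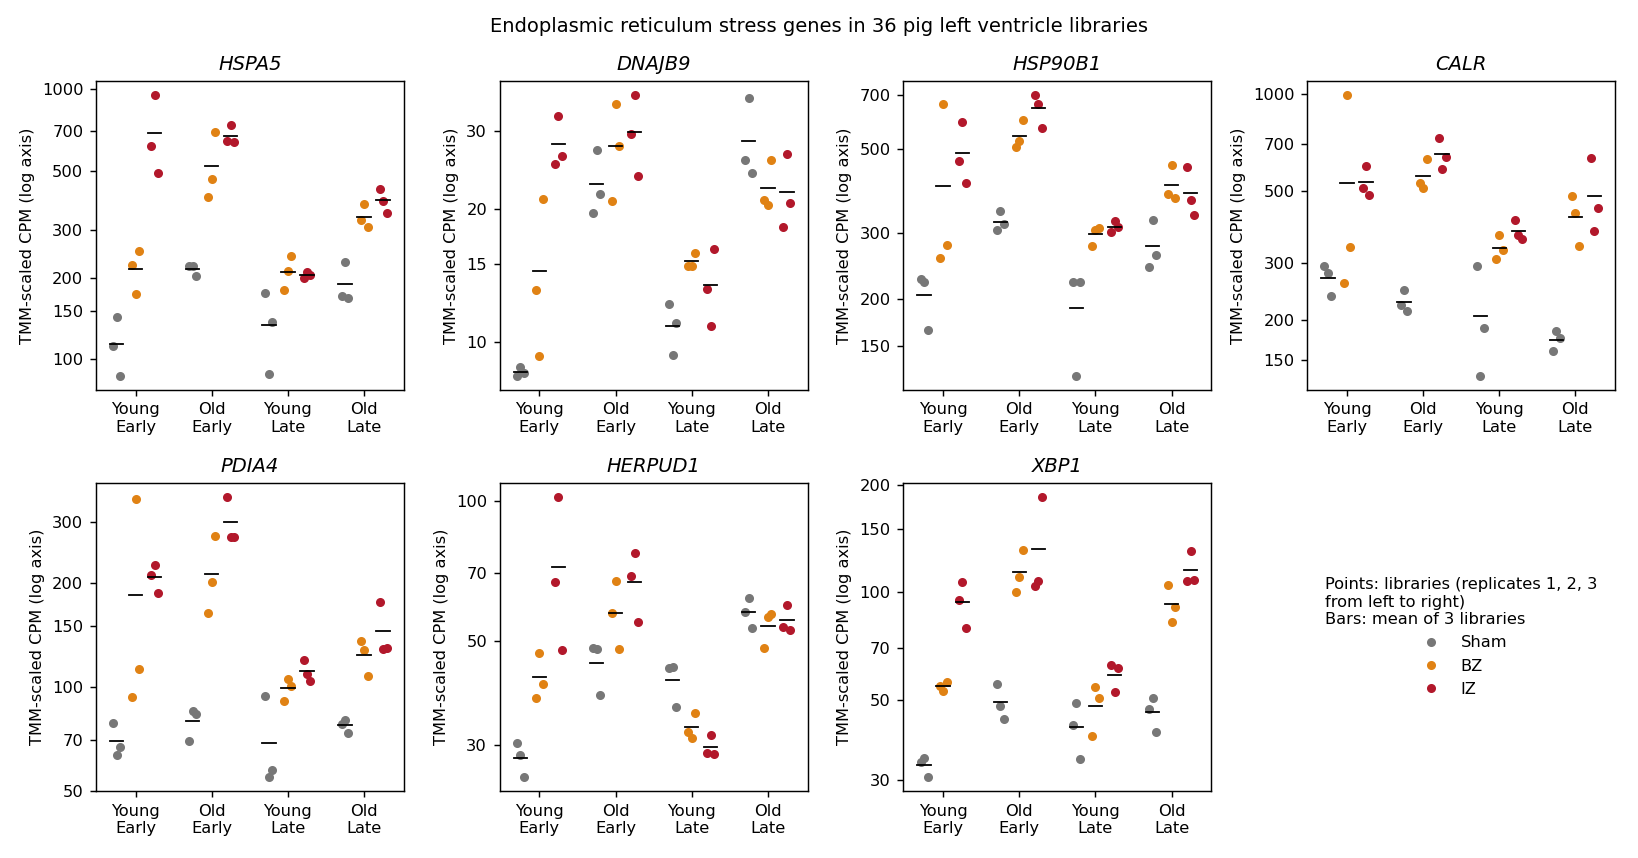
TMM-scaled CPM (log axis) of the 7 genes in each of 36 libraries, grouped by age at surgery and time after it. Points are libraries, coloured by sham (grey), BZ (orange) and IZ (red), and bars are means of 3. In the Young Early condition the 3 IZ points lie above the 3 sham points in all 7 panels.

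In sham tissue the chaperones were the most abundant of the 7 per length of exon. HSP90B1 stood at 121 mean CPM per kilobase in Young Early sham and CALR at 117, followed by HSPA5 at 44.7 and PDIA4 at 18.7. XBP1 (7.18), HERPUD1 (4.24) and DNAJB9 (2.45) were lowest on the same scale. Of the 7 genes, HSPA5 had the widest range over the 36 libraries, from 86.5 to 953 CPM, and HERPUD1 the narrowest, from 25.6 to 102 CPM, by the ratio of highest to lowest.

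In pigs infarcted at 2 days of age and sampled 1 day later, all 7 genes rose in the IZ, and fewer were called at 7 days and in the BZ. In the Young Early IZ 7 of 7 were called higher than sham, where 15.2% of all 14537 genes tested were. Their median log2 fold change was 1.52, beside 0.08 over all genes. In the Old Early IZ 6 of 7 were called higher (19.5% of all genes), with a median of 1.42 beside 0.00. At 7 days the Young Late IZ had 3 of 7 called higher (17.2% of all genes; median 0.62 beside 0.03) and the Old Late IZ 4 of 7 (25.1%; median 0.90 beside -0.04). The BZ had 2 of 7 called higher in the Young Early condition (0.784% of all genes), 5 in the Old Early (14.1%), 0 in the Young Late (8.25%) and 3 in the Old Late (20.0%). For the Young Late BZ, 3 members had an unadjusted edgeR p under 0.05 and DESeq2 called 1. No member was called lower in either zone against sham. The medians describe these lists, which were chosen with results known. Fewer cells of a type and less RNA per cell cannot be told apart in these tissue samples.

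Counted by libraries, all 3 IZ values lay above all 3 sham values for 7 of 7 genes in the Young Early pigs (25.5% of all genes), 6 in the Old Early (26.9%), 5 in the Young Late (25.9%) and 5 in the Old Late (29.3%). For the BZ this held for 6 of 7 in the Young Early pigs (8.01% of all genes), 5 in the Old Early (23.2%), 4 in the Young Late (18.2%) and 5 in the Old Late (30.3%). The reverse order held only for HERPUD1 in the Young Late pigs, 1 of 7 genes in the IZ (21.8% of all genes) and 1 in the BZ (17.1%).

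**Figure D2:**
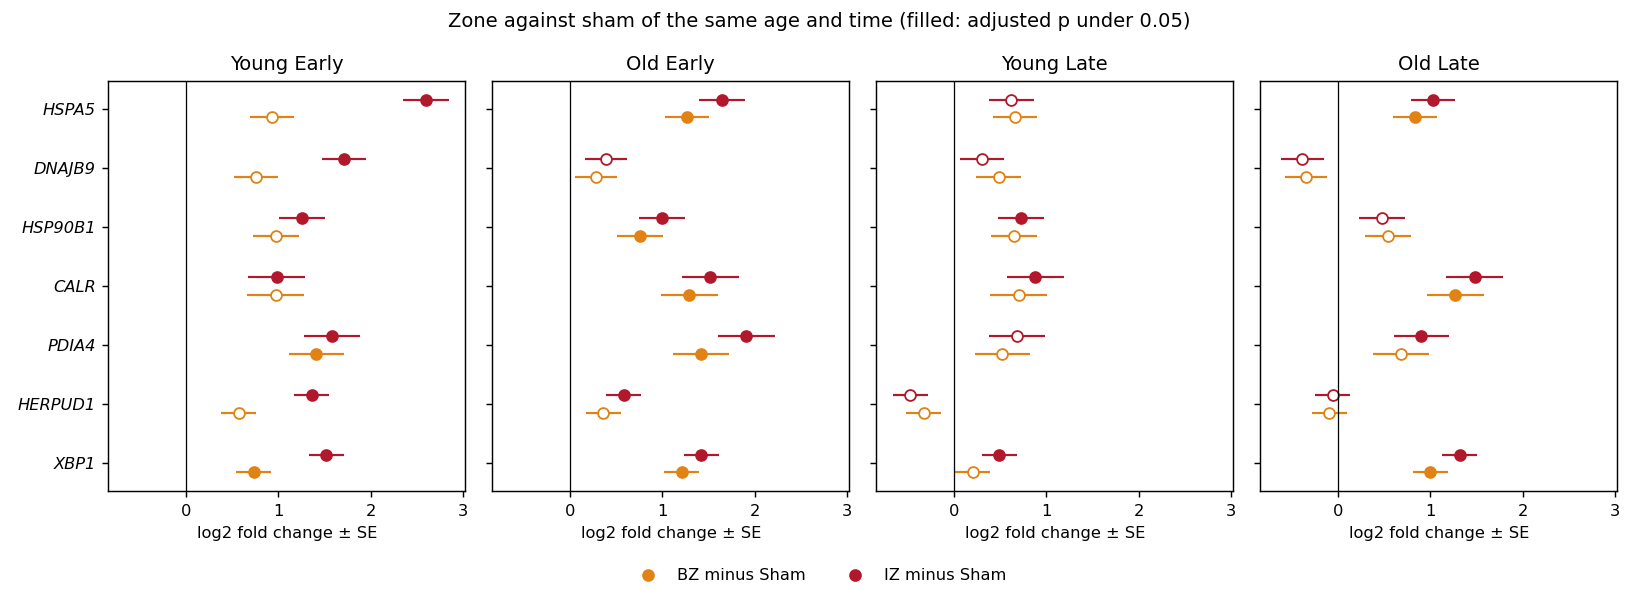
Log2 fold change ± SE (x axis) of each gene in IZ (red) and BZ (orange) against sham of the same age and time. Filled points have an adjusted p under 0.05. HSPA5 has the largest IZ value in the Young Early panel (2.60), and HERPUD1 has negative values in both zones of the Young Late panel (-0.48 and -0.33).

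HSPA5 encodes BiP, the main chaperone of the endoplasmic reticulum, which also holds the stress sensors inactive. In the Young Early groups it stood at 112, 143 and 86.5 CPM in sham, 223, 175 and 251 in BZ and 618, 953 and 491 in IZ. The 3 IZ libraries lay above all BZ libraries, and these above all sham libraries, with IZ replicate 2 the highest of the 36. The IZ level was 6.04-fold that of sham (log2 2.60 ± 0.25, adjusted p = 3.17e-07). In the Old Early groups the values were 222, 222 and 203 in sham, 398, 463 and 693 in BZ and 642, 740.4 and 639.6 in IZ. Sham started higher here, the zones overlapped, and both zones lay above sham. HSPA5 rose by 1.65 ± 0.25 in the Old Early IZ (adjusted p = 1.30e-05) and by 1.27 ± 0.24 in the Old Early BZ (adjusted p = 0.000583).

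By 7 days the HSPA5 levels were closer together. Young Late sham held 175, 88.1 and 136 CPM, BZ 179.5, 212 and 240.1 and IZ 199, 211 and 204. The zone libraries lay just above the highest sham library, and neither difference was called: IZ stood at 0.62 ± 0.24 (adjusted p = 0.0526) and BZ at 0.66 ± 0.24 (adjusted p = 0.0654). Both passed by DESeq2 (0.0388 and 0.041) and without sham replicate 1, at 0.87 (adjusted p = 0.0145) and 0.91 (adjusted p = 0.019). Without sham replicate 2, the lowest of the 3 and the only one of batch 1, they were 0.39 (0.279) and 0.44 (0.339). Within batch 1, with 1 library of each group, the log2 ratio of HSPA5 to sham was 1.18 in IZ and 1.45 in BZ. Within batch 2, with 2 of each, it was 0.41 and 0.33. In the Old Late groups the values were 171, 229 and 168 in sham, 329, 374 and 308 in BZ and 428, 386 and 348 in IZ, with both zones above sham. HSPA5 rose by 1.03 ± 0.24 in the Old Late IZ (adjusted p = 0.000846) and by 0.83 ± 0.24 in the BZ (adjusted p = 0.00777). In order of group means the 5 highest were Young Early IZ, Old Early IZ, Old Early BZ, Old Late IZ and Old Late BZ, each overlapping the next, and a gap without overlap separated these from the other 7 groups.

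DNAJB9 encodes ERdj4, a co-chaperone of BiP that helps pass misfolded proteins on for degradation and restrains IRE1. Young Early sham libraries held 8.39, 8.77 and 8.53 CPM, BZ 13.1, 9.31 and 21.0 and IZ 25.3, 32.5 and 26.4. These 3 sham values had the smallest SD of DNAJB9 in any group, and every IZ library lay above every BZ library. DNAJB9 rose by 1.71 ± 0.24 in the Young Early IZ, 3.27-fold (adjusted p = 2.22e-05). In the other conditions it was not called against sham. Old Early sham held 19.6, 27.3 and 21.7 CPM and IZ 29.6, 36.3 and 23.8, with overlap and a difference of 0.39 ± 0.23 (adjusted p = 0.2). Old Late sham held 25.8, 35.8 and 24.2 CPM, higher on average than the Old Late IZ at 18.2, 26.7 and 20.7, again with overlap (-0.39 ± 0.23, adjusted p = 0.171). The Young Late IZ differed from sham by 0.30 ± 0.24 (adjusted p = 0.375), and differences in the BZ ran from -0.35 in the Old Late to 0.76 in the Young Early condition.

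HSP90B1 encodes GRP94, the HSP90 chaperone of the endoplasmic reticulum. Its 3 IZ libraries lay above all sham libraries in each of the 4 conditions, from 408 to 590.4 CPM against 166 to 226 in the Young Early to 335 to 448 against 243 to 324 in the Old Late pigs. HSP90B1 rose by 1.26 ± 0.25 in the Young Early IZ (adjusted p = 0.00075), by 1.00 ± 0.25 in the Old Early IZ (0.00293), by 0.72 ± 0.25 in the Young Late IZ (0.0317) and by 0.76 ± 0.25 in the Old Early BZ (0.0295). The Old Late IZ differed by 0.47 ± 0.25 (adjusted p = 0.12), and passed in a fit of its groups alone (0.0357). The Young Late IZ call ended without any of the 3 IZ libraries (adjusted p 0.0614 to 0.0785) and without sham replicate 2 (0.49, adjusted p = 0.196). The Old Early BZ call held only without BZ replicate 1, and adjusted p ran from 0.0522 to 0.0888 without each of the other 5 libraries (BZ replicates 2 and 3, sham replicates 1, 2 and 3).

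CALR encodes calreticulin, a calcium-binding chaperone for glycoproteins. Young Early sham held 293, 278 and 237 CPM and IZ 512, 599 and 486, with no overlap and a difference of 0.98 ± 0.31 (adjusted p = 0.0193). That call ended without IZ replicate 2 (adjusted p = 0.0524) or sham replicate 3 (0.0761). In older pigs sham was lower on average and the zones were further from it. Old Early sham held 222, 247 and 213 CPM, BZ 531, 512 and 629 and IZ 728, 586 and 638, and Old Late sham 159.8, 185 and 176, BZ 484, 428 and 338 and IZ 632, 377 and 444. Both zones lay above sham at both times. CALR rose by 1.52 ± 0.31 in the Old Early IZ (adjusted p = 0.000473), by 1.48 ± 0.31 in the Old Late IZ (0.000272), by 1.29 ± 0.31 in the Old Early BZ (0.0037) and by 1.27 ± 0.31 in the Old Late BZ (0.00216).

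In the Young Late condition CALR stood at 293, 134 and 189 CPM in sham and 408, 366 and 356 in IZ, and rose by 0.88 ± 0.31 (adjusted p = 0.0317). Sham replicate 2 was the lowest library of the series for CALR, and without it the difference was 0.65 (adjusted p = 0.174). The call also ended without IZ replicate 1 (0.106), IZ replicate 2 (0.0569) or sham replicate 3 (0.097). Within library preparation batch 2, with 2 IZ and 2 sham libraries, the log2 ratio of mean CALR was 0.59, and in batch 1, with 1 of each, 1.61. In the same order the IZ ratios were 0.51 and 1.27 for HSP90B1, 0.49 and 1.13 for PDIA4 and 0.23 and 0.50 for DNAJB9. They were -0.41 and -0.61 for HERPUD1 and 0.57 and 0.35 for XBP1. The Young Late BZ difference of 0.70 ± 0.31 (adjusted p = 0.125) passed without sham replicate 1 (1.05, 0.0309) and stood at 0.47 without sham replicate 2 (0.446). Without sham replicate 2 the Young Late BZ differences of the 7 genes ran from -0.29 for HERPUD1 to that of CALR, and none was called.

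PDIA4 encodes ERp72, a protein disulfide isomerase. Early sham libraries held 78.3, 63.3 and 66.7 CPM in Young and 69.8, 84.8 and 83.4 in Old pigs, and the IZ held 210.0, 225 and 186 and 355, 271 and 271. All Early IZ libraries lay above all Early sham libraries. PDIA4 rose by 1.58 ± 0.30 in the Young Early IZ (adjusted p = 0.000451) and by 1.91 ± 0.31 in the Old Early IZ (2.91e-05), the largest Old Early rise of the 7 genes. In the Old Early BZ, at 164, 201 and 273 CPM, it rose by 1.42 ± 0.30 (adjusted p = 0.00135). At 7 days the Old Late IZ held 176, 128 and 129 CPM against 78.2, 80.2 and 73.6 in sham, a rise of 0.90 ± 0.30 (adjusted p = 0.0135). The Old Late BZ differed by 0.68 ± 0.30 (adjusted p = 0.0694), and passed by DESeq2 (0.0463). The Young Late IZ differed by 0.68 ± 0.30 (adjusted p = 0.082), by 0.99 without sham replicate 1 (0.025) and by 0.54 without sham replicate 2 (0.259).

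The Young Early BZ result turned on replicate 2. There PDIA4 stood at 93.4, 349 and 112 CPM, CALR at 259, 992 and 336 and HSP90B1 at 257, 662 and 279, so that for these 3 genes replicate 2 lay far above the other BZ libraries. With all libraries PDIA4 (1.41 ± 0.30, adjusted p = 0.0235) and XBP1 (0.73 ± 0.19, 0.0492) were called. Without replicate 2 PDIA4 stood at 0.57 (0.107) and XBP1 stood at 0.76 (0.0537). HSPA5 at 1.06 (adjusted p = 0.0414) and DNAJB9 at 1.00 (0.0392) were called in their place, where 0.828% of genes were called higher. CALR moved from 0.97 ± 0.31 to 0.14, and without replicate 1 or 3 both HSP90B1 and CALR were called (adjusted p 0.00795 to 0.0456). Leaving out any of the 3 sham libraries also ended the calls of PDIA4 and XBP1 (adjusted p 0.0634 to 0.227), as did BZ replicate 3 for XBP1 (0.0621), and a fit of these groups alone gave 0.831 for both.

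HERPUD1 encodes a membrane protein of the complex that removes misfolded proteins for degradation. In the IZ it was called higher at 1 day and not at 7 days, and in the BZ it was not called at either time. The Early BZ differences were 0.57 ± 0.19 in Young (adjusted p = 0.111) and 0.36 ± 0.19 in Old pigs (0.167). Young Early sham held 30.2, 28.6 and 25.6 CPM and IZ 67.0, 102 and 47.8, with IZ replicate 2 the highest of the 36 libraries and no overlap. HERPUD1 rose by 1.36 ± 0.19 there (adjusted p = 1.73e-05) and by 0.58 ± 0.19 in the Old Early IZ (adjusted p = 0.017), where sham held 48.4, 48.1 and 38.3 CPM and IZ 69.1, 77.3 and 54.9. The Old Early call ended without IZ replicate 1 (0.056), IZ replicate 2 (0.0756) or sham replicate 3 (0.0947). In the Young Late pigs all 3 IZ libraries (28.9, 31.5 and 28.6 CPM) and all 3 BZ libraries (32.0, 31.1 and 35.2) lay below all 3 sham libraries (43.9, 44.1 and 36.1). The differences were -0.48 ± 0.19 in IZ (adjusted p = 0.0549) and -0.33 ± 0.19 in BZ (0.238). The IZ value passed the threshold without sham replicate 3 (-0.57, 0.0495) and by DESeq2 (0.0434). In the Old Late pigs the zones and sham overlapped, at 55.4 ± 3.87 CPM (SD, n = 3) in IZ and 57.7 ± 4.28 in sham.

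XBP1 encodes the transcription factor that IRE1 activates by splicing. Sham libraries of the 4 conditions held between 30.5 and 55.5 CPM. The Young Early IZ held 95.3, 107 and 79.8 CPM, the Old Early IZ 104, 108 and 185 and the Old Late IZ 108, 131 and 108, all above their sham libraries. The highest value of the series was Old Early IZ replicate 3. XBP1 rose by 1.52 ± 0.19 in the Young Early IZ (adjusted p = 5.65e-06), by 1.42 ± 0.19 in the Old Early IZ (3.02e-06) and by 1.32 ± 0.19 in the Old Late IZ (1.63e-06). In the Old BZ it rose by 1.21 ± 0.19 at 1 day (7.09e-05) and by 1.00 ± 0.19 at 7 days (0.00014). The Young Late IZ held 62.6, 52.6 and 61.7 CPM against 42.6, 49.2 and 34.4 in sham, a rise of 0.49 ± 0.19 (adjusted p = 0.047). That call ended without IZ replicate 1 (0.2) or 3 (0.109), without sham replicate 1 (0.0769) or 3 (0.211), and under 4 alternatives, among them DESeq2 size factors.

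Within the hearts of the Young Early pigs the infarct zone exceeded the border zone for 4 genes. With the pig as a block, 4 of 7 were called higher in IZ than in BZ, where 4.03% of 14386 genes were. The log2 ratio of IZ to BZ in the 3 pigs was 1.47, 2.45 and 0.97 for HSPA5, 0.95, 1.80 and 0.33 for DNAJB9, 0.83, 1.11 and 0.24 for HERPUD1 and 0.80, 1.02 and 0.50 for XBP1. All 3 pigs had a higher IZ for these 4 genes. The fitted differences were 1.62 ± 0.26 for HSPA5 (adjusted p = 0.00826), 1.01 ± 0.24 for DNAJB9 (0.0226), 0.72 ± 0.16 for HERPUD1 (0.0179) and 0.77 ± 0.18 for XBP1 (0.0194). For CALR the ratios were 0.98, -0.73 and 0.53, for PDIA4 1.17, -0.63 and 0.73 and for HSP90B1 0.86, -0.17 and 0.55. In these 3 genes the pig of replicate 2 went the other way from the other pigs, and none was called.

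The same pig, with mitochondrial shares of 40.8% in IZ and 10.1% in BZ, gave the largest ratio for each of the 4 called genes. Without its IZ or BZ library, only HSPA5 (1.22, 0.0392 without BZ replicate 2) kept its call, and HSP90B1 was called at 0.71 (0.0464). Without either library of the pig of replicate 1, DNAJB9, HERPUD1 and XBP1 had adjusted p of 0.0663 to 0.0738. In a fit of these libraries alone none passed (adjusted p 0.216 to 0.293), and without the pig as a block DNAJB9 (0.0547) and HERPUD1 (0.0513) did not. In the other conditions no member was called between the zones. That was 0 of 7 in the Old Early pigs (0.0% of all genes called in either direction), 0 of 7 in the Young Late (0.0%) and 0 of 7 in the Old Late (2.05%). The Old Late share rests on pairing by the titles: with BZ replicate 3 as a pig of its own, 0 of all genes were called, and without the block 1 higher and 4 lower. No member had an unadjusted edgeR p under 0.05 there, and DESeq2 called none. Over all genes the Old Early comparison had 928 with an unadjusted edgeR p under 0.05 and DESeq2 called 4 higher and 1 lower. The Young Late comparison had 1434, and DESeq2 called 58 higher and 21 lower. In the Young Late pigs of replicates 1 and 3 the zones also differed in library preparation batch. Batch 1 held IZ replicate 1 and BZ replicate 3, and batch 2 held BZ replicate 1 and IZ replicate 3.

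**Figure D3:**
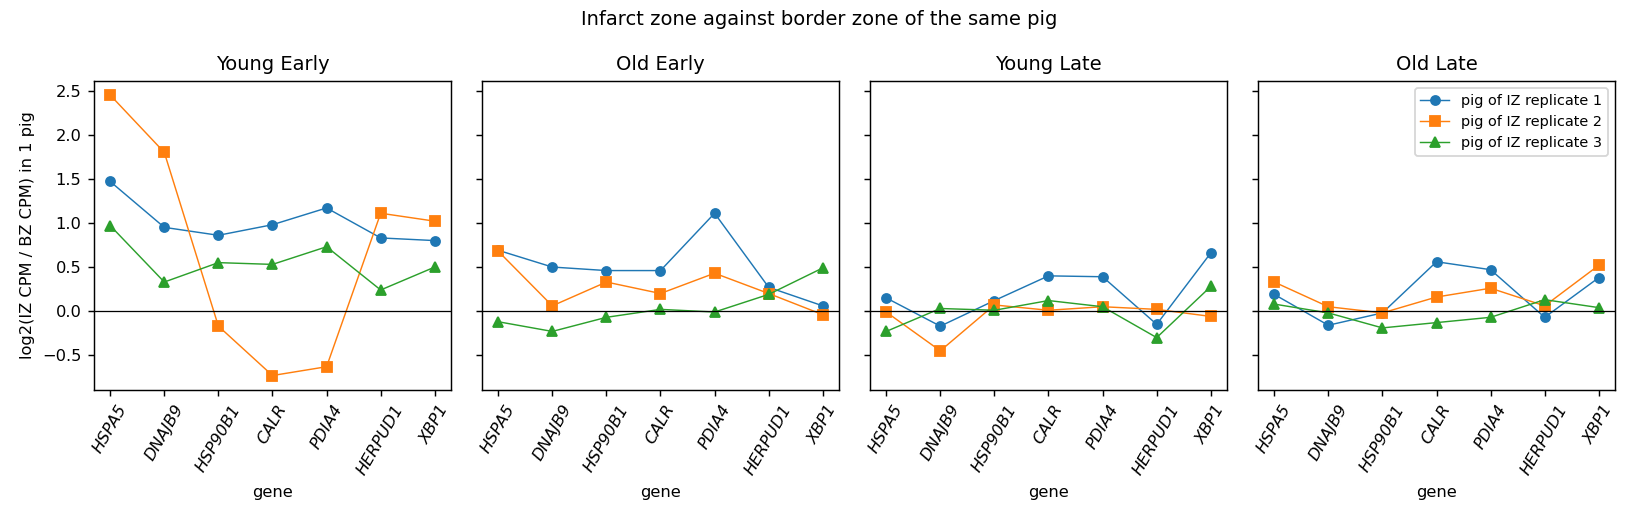
Log2 ratio of IZ to BZ CPM (y axis) of each gene in each of 12 infarcted pigs. Lines join the 7 genes of 1 pig and 0 marks equal levels. In the Young Early panel the pig of replicate 2 has the highest HSPA5 ratio (2.45) and the lowest CALR ratio (-0.73).

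In pigs operated at 2 days, the difference between IZ and sham was smaller at 7 days than at 1 day for 4 of 7 genes, where 6.2% of all genes were called lower. HSPA5 dropped by 1.98 ± 0.34 on the log2 scale (adjusted p = 0.00125), HERPUD1 by 1.84 ± 0.27 (0.000299), DNAJB9 by 1.41 ± 0.34 (0.0114) and XBP1 by 1.03 ± 0.26 (0.0149). From 1 to 7 days mean HSPA5 went from 687 to 205 CPM in the IZ and from 114 to 133 in sham, and mean HERPUD1 from 72.2 to 29.7 and from 28.1 to 41.4. CALR differed by -0.11 ± 0.43 (adjusted p = 0.892), HSP90B1 by -0.54 ± 0.35 (0.297) and PDIA4 by -0.89 ± 0.42 (0.146, and 0.0274 with the groups alone). With batch as a term the 4 differences were -1.96, -1.83, -1.41 and -1.02, all still called. IZ and sham held the same mix of batches at each time, so this term could hardly move them. Only the XBP1 call was lost without a single library, Young Late Sham replicate 2 (-0.90, adjusted p = 0.0543).

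In pigs operated at 14 days no member was called between the times in the IZ (0 of 7, where 4.53% of all genes were called in either direction), although 3 had an unadjusted edgeR p under 0.05 and DESeq2 called none. HSPA5 differed by -0.61 ± 0.34 (adjusted p = 0.362), HERPUD1 by -0.64 ± 0.26 (0.184), DNAJB9 by -0.77 ± 0.33 (0.202) and XBP1 by -0.10 ± 0.26 (0.901). PDIA4, at -1.01 ± 0.42 (0.186), passed in a fit of the groups alone (0.0336). Whether the drop with time itself differed between the ages was not tested. In the BZ no member was called between the times in Young (0.186% of all genes in either direction) or Old pigs (1.26%), with 2 and 0 members at an unadjusted edgeR p under 0.05 and 0 called by DESeq2.

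Between the ages, the IZ response at 1 day differed for DNAJB9 alone among the 7 by the edgeR test (0.378% of all genes called lower). The response was lower in Old pigs, with a difference of -1.32 ± 0.33 (adjusted p = 0.0499), just under the threshold. The call ended without any 1 of 10 of the 12 libraries, all but Old Early IZ replicate 2 and Young Early IZ replicate 2 (adjusted p 0.0729 to 0.18), and under 7 of 9 alternatives. HERPUD1 differed by -0.78 ± 0.26 (adjusted p = 0.0926), and by -0.90 without Old Early IZ replicate 2 (0.0419), and HSPA5 by -0.95 ± 0.34 (0.102). At 7 days no member was called in the IZ (3.67% of all genes in either direction), with XBP1 nearest at 0.83 ± 0.26 (adjusted p = 0.0658), and 1 member at an unadjusted edgeR p under 0.05. XBP1 passed by DESeq2 (0.023) and when either Young Late IZ replicate 1 (0.048) or Young Late Sham replicate 3 was left out (0.0413). Age comparisons of the BZ called no member at 1 day (0.22% of all genes in either direction) or 7 days (1.09%). There 0 and 2 members had an unadjusted edgeR p under 0.05, and DESeq2 called 0 and 1 (XBP1, 0.0424). Without Young Early BZ replicate 2, CALR (1.15, 0.0214) and PDIA4 (0.86, 0.0417) were called higher in Old pigs at 1 day, where 8.32% of all genes were.

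Sham tissue itself differed with age in these genes, which is the base from which the zones were measured. RNA integrity numbers did not overlap between the Early sham groups, at 6.4 to 6.9 in Young and 7.1 to 7.6 in Old pigs. At 15 against 3 days of age 5 of 7 were called higher, where 17.5% of all genes were. DNAJB9 stood at 22.8 ± 3.98 CPM in the older and 8.56 ± 0.195 in the younger sham hearts (SD, n = 3 each), a difference of 1.41 ± 0.24 (adjusted p = 0.000762). HSPA5 was higher by 0.92 ± 0.24 (0.00798), HERPUD1 by 0.67 ± 0.19 (0.0105), HSP90B1 by 0.65 ± 0.25 (0.0489) and XBP1 by 0.59 ± 0.19 (0.0203). CALR differed by -0.24 ± 0.31 and PDIA4 by 0.19 ± 0.30, both with overlapping libraries. The HSP90B1 call ended without any of the 6 libraries (adjusted p 0.0693 to 0.177) and under 6 of 9 alternatives, and that of XBP1 without Old replicate 1 (0.0787), Young replicate 1 (0.0568) or Young replicate 3 (0.0724). With batch as a term, which only the Young Late libraries inform, HSPA5 had 0.75 (0.108) and HERPUD1 0.76 (0.053), and DNAJB9 (0.0194) and XBP1 (0.0437) kept their calls. With RNA integrity as a covariate XBP1 (0.0888) and HSP90B1 (0.0745) lost their calls and the other 3 kept them, while calls over all genes went from 2540 higher and 1976 lower to 865 and 538.

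At 21 against 9 days DNAJB9 was also higher in the older sham hearts, 25.8, 35.8 and 24.2 against 12.2, 9.33 and 11.1 CPM. The groups did not overlap, with a difference of 1.39 ± 0.24 (adjusted p = 0.00156), and 1 of 7 members was called where 6.98% of all genes were. RNA integrity numbers did not overlap either, at 6.6 to 7.6 in Young Late and 7.8 to 8.4 in Old Late sham. Batches also differed (1 and 2 in Young, 3 in Old), so age and batch cannot be told apart here. Between the times, sham hearts showed no call among the members in Young (8.74% of all genes in either direction) or Old pigs (0.0275%). HERPUD1 in Young sham was nearest at 0.55 ± 0.19 (adjusted p = 0.0604), and it passed by DESeq2 (0.0482). Of the 7 members, 1 in Young and 0 in Old sham had an unadjusted edgeR p under 0.05, and DESeq2 called 1 and 0.

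The 7 genes did not share a single pattern. Over the 12 group means of log2 CPM, Pearson r among HSPA5, HSP90B1, CALR and PDIA4 ran from 0.82 (HSPA5 and CALR) to 0.95 (HSPA5 and HSP90B1). XBP1 correlated with these 4 at 0.83 to 0.94. DNAJB9 and HERPUD1 were most alike among themselves (0.89) and least like CALR (0.38 and 0.41). These values describe 12 points that share scaling. Over the 36 deviations of libraries from their group means, HSPA5 correlated with HSP90B1, CALR and PDIA4 at 0.15 to 0.40, and at 0.59 to 0.85 without the 3 Young Early BZ libraries. The genes with the most similar 12 group means to HSPA5 were the cytosolic chaperone HSPH1 (r = 0.98), the decoy receptor TNFRSF11B (0.98), the BiP co-chaperone DNAJC3 (0.97), the AP-1 factor JUNB (0.97) and the oncostatin M receptor OSMR (0.96).

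The other genes of the pathway were read from 7 lists. Of the sensors and the proteases that cut ATF6, 5 were tested, and 2 were called higher in the Young Early IZ, 2 in that of the Old Early pigs, 1 in the Young Late and 2 in the Old Late, with 0, 0, 1 and 1 called lower. Over all genes 15.2%, 19.5%, 17.2% and 25.1% were called higher, and 12.0%, 14.8%, 13.0% and 24.0% lower, in these 4 comparisons. The Young Late share of the list called higher, 20.0%, lay near that of all genes. ATF6 (46.8 against 22.2 mean CPM) rose by 1.07 ± 0.22 in the Young Early IZ (adjusted p = 0.000844), and the PERK gene EIF2AK3 (11.6 against 6.14) by 0.92 ± 0.29 (0.0186). The IRE1 gene ERN1 rose by 1.88 ± 0.33 in the Old Early IZ (9.09e-05), by 1.08 ± 0.34 in the Young Late IZ (0.0158) and by 1.39 ± 0.33 in the Old Late IZ (0.000907). ATF6B rose in both Old conditions, by 0.66 ± 0.16 (0.00262) and 0.70 ± 0.16 (0.000769). MBTPS1, the first protease to cut ATF6, fell by 0.69 ± 0.14 in the Young Late IZ (0.000588) and by 0.56 ± 0.14 in the Old Late IZ (0.00165).

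Of 20 further chaperones and co-chaperones tested, 13 were called higher in the Young Early IZ, 13 in the Old Early, 9 in the Young Late and 14 in the Old Late, and none lower. Their medians were 1.00, 1.07, 0.77 and 1.04, beside 0.08, 0.00, 0.03 and -0.04 over all genes. CRELD2, a secreted stress protein, stood at 42.7 against 9.77 mean CPM in the Young Early and 49.9 against 5.09 in the Old Early IZ and sham, rises of 2.12 ± 0.40 (adjusted p = 0.000376) and 3.29 ± 0.42 (1.88e-06). It also rose in the Old Late IZ, by 2.51 ± 0.41 (1.21e-05). FKBP14 rose in the Young Early IZ (1.92 ± 0.42, 0.00141), PPIB in the Old Early (2.20 ± 0.42, 0.000212) and PPIC in the Young Late (1.73 ± 0.33, 0.000311). FKBP10 rose by 2.14 ± 0.33 in the Young Late (2.57e-05) and by 3.34 ± 0.35 in the Old Late IZ (1.94e-08), from 190.5 against 18.8 mean CPM in the latter. FKBP10, FKBP14 and PPIB are known for folding procollagen.

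Of 15 further oxidoreductases, 11, 9, 7 and 9 were called higher in the 4 IZ comparisons in the order above (15.2%, 19.5%, 17.2% and 25.1% of all genes), and none lower (12.0% to 24.0% of all genes). Their medians were 1.03, 0.77, 0.42 and 0.86. P4HB and PDIA6, both disulfide isomerases, rose by 1.83 ± 0.23 (adjusted p = 1.91e-06) and 1.91 ± 0.25 (3.26e-06) in the Old Early IZ, and PDIA6 by 1.37 ± 0.25 in the Old Late IZ (4.82e-05). TXNDC5 rose by 1.75 ± 0.29 in the Young Late (5.86e-05) and 2.79 ± 0.30 in the Old Late IZ (2.68e-08), where it stood at 309.9 against 44.8 mean CPM. ERO1B, which reoxidises these enzymes, rose by 1.87 ± 0.32 in the Young Early (0.000162) and 1.11 ± 0.36 in the Young Late IZ (0.02). TMX1, a membrane-bound member of the family, rose by 1.71 ± 0.63 in the Young Early IZ (0.0427), at 6.66 against 2.03 mean CPM with overlapping libraries.

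Of 21 further degradation genes, 6, 7, 4 and 7 were called higher in the same order, which is 28.6%, 33.3%, 19.0% and 33.3% of the list beside 15.2%, 19.5%, 17.2% and 25.1% of all genes. The shares of the Late pigs lay near those of all genes, and the medians were 0.37, 0.36, 0.05 and 0.14. In the Old Late IZ 1 was called lower (UFD1, which fell by 0.39 ± 0.16, adjusted p = 0.0471), where 24.0% of all genes were. EDEM1, which marks glycoproteins for degradation, rose by 2.04 ± 0.34 in the Young Early (0.000137) and 1.28 ± 0.33 in the Old Early IZ (0.00389). DERL3 rose by 3.27 ± 0.53 in the Old Early IZ (3.38e-05) from a low base (6.49 against 0.683 mean CPM), by 1.65 ± 0.54 in the Young Early (0.0232) and by 2.34 ± 0.57 in the Old Late IZ (0.00117). SELENOS, of the same export complex, rose by 0.81 ± 0.21 in the Young Late (0.00478) and 1.10 ± 0.21 in the Old Late IZ (8.35e-05), and DERL2 by 0.60 ± 0.19 in the Young Late IZ (0.0206).

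Of 31 genes of the PERK and ATF4 arm, 11, 15, 9 and 14 were called higher, which is 35.5%, 48.4%, 29.0% and 45.2% of the list beside 15.2%, 19.5%, 17.2% and 25.1% of all genes. Lower calls numbered 0, 1, 3 and 4, or at most 12.9% of the list, where 12.0% to 24.0% of all genes were called lower. The medians were 0.61, 0.66, 0.29 and 0.52. TRIB3, a pseudokinase induced by ATF4 and DDIT3, rose by 2.48 ± 0.60 in the Young Early (adjusted p = 0.00348) and 3.82 ± 0.69 in the Old Early IZ (0.000118), and SESN2 by 2.81 ± 0.52 in the Young Early IZ (0.000356). The amino acid transporter SLC7A5 rose by 3.49 ± 0.45 in the Old Early (2.19e-06), 2.11 ± 0.44 in the Young Late (0.000698) and 2.98 ± 0.44 in the Old Late IZ (3.15e-06). PHGDH, which starts serine synthesis, rose by 2.34 ± 0.46 in the Young Late (0.000403) and 3.70 ± 0.49 in the Old Late IZ (5.62e-07). In the Old Late IZ PPP1R15A, which ends the PERK signal, fell by 1.16 ± 0.36 (0.00975) and STC2 by 1.57 ± 0.29 (4.88e-05). CTH fell by 2.59 ± 0.58 in the Young Late IZ (0.00137), and the lipoprotein receptor VLDLR by 0.87 ± 0.28 in the Old Early (0.015) and 0.88 ± 0.28 in the Young Late IZ (0.0163).

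Of 33 genes for protein entry and secretory transport, 24, 24, 11 and 18 were called higher, which is 72.7%, 72.7%, 33.3% and 54.5% of the list, with 2 lower in the Old Late IZ (SAR1B, which fell by 0.59 ± 0.23, adjusted p = 0.0319, and SPCS1, by 0.59 ± 0.19, 0.00983). Among all genes 15.2%, 19.5%, 17.2% and 25.1% were called higher, and 24.0% lower in the Old Late IZ. SEC24D, a coat protein of vesicles that leave the endoplasmic reticulum, rose by 2.24 ± 0.39 in the Young Early IZ (0.000189). KDELR3, a receptor that returns chaperones, rose by 2.43 ± 0.28 in the Old Early (7.12e-07), 2.31 ± 0.29 in the Young Late (1.97e-06) and 3.25 ± 0.29 in the Old Late IZ (2.14e-09). OSTC, of the glycosylation complex, rose in all 4, from 1.27 ± 0.28 in the Young Late (0.00122) to 2.15 ± 0.28 in the Old Late IZ (4.76e-07).

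The 6 genes listed as OASIS factors were CREB3, CREB3L1, CREB3L2, CREB3L3, CREB3L4 and CREBRF. Of these, 2, 3, 4 and 5 were called higher and 1 lower, in the Young Early IZ, with medians of 0.24, 0.87, 0.86 and 1.40. Higher calls over all genes made up 15.2%, 19.5%, 17.2% and 25.1%, and lower calls 12.0% in the Young Early IZ. CREB3L1, known for driving collagen secretion, rose by 2.69 ± 0.38 in the Old Early (adjusted p = 6.13e-06), 1.90 ± 0.38 in the Young Late (0.000372) and 3.49 ± 0.39 in the Old Late IZ (4.92e-08). CREB3L2 rose by 1.12 ± 0.24 in the Young Early (0.0011) and 1.24 ± 0.24 in the Old Early IZ (0.000222). CREB3 rose by 0.46 ± 0.16 in the Young Early IZ (0.0319). The gene called lower was CREB3L3, at 0.83 against 3.94 mean CPM in the Young Early IZ and sham (adjusted p = 0.0166), with overlapping libraries. At these low levels it was called higher in the Young Late IZ, 2.01 against 0.355 mean CPM (0.049), and in the Old Late IZ, 2.12 against 0.485 (0.0273).

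**Figure D4:**
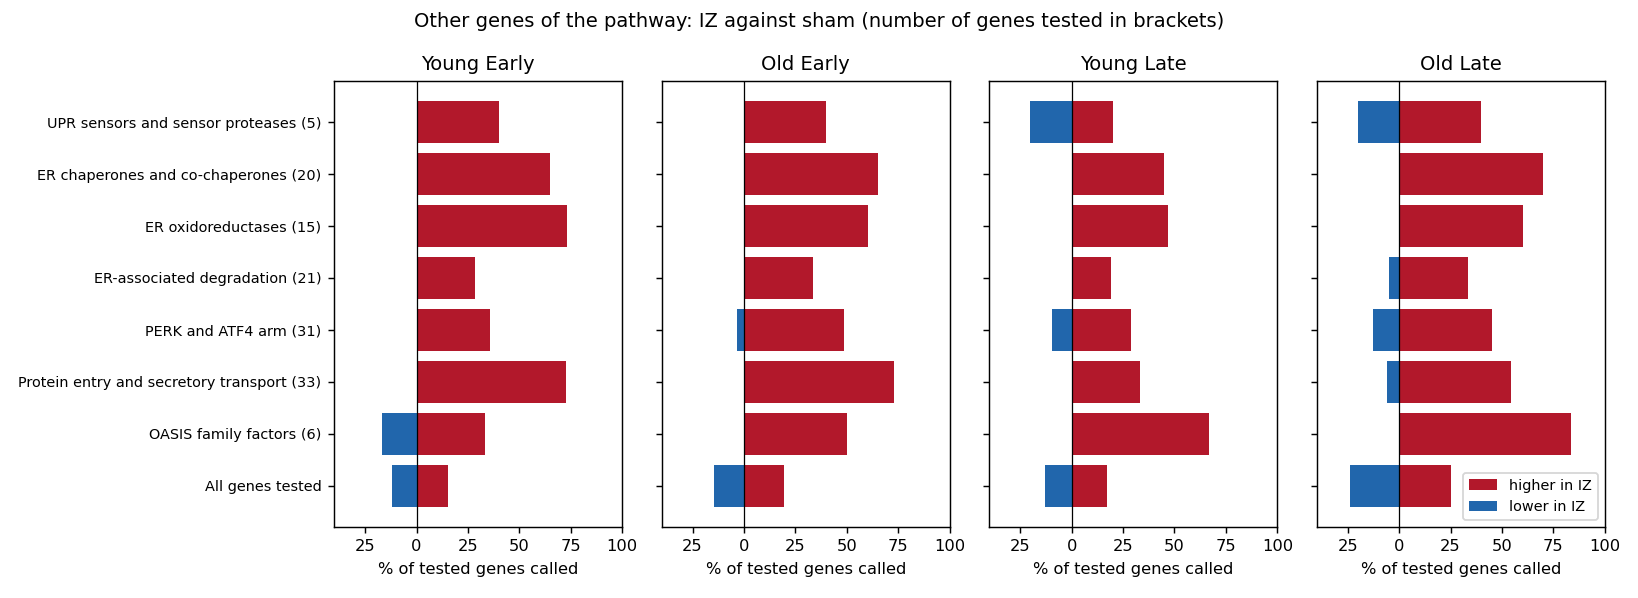
Share of tested genes called higher (red, right of 0) or lower (blue, left of 0) in IZ against sham, as a percentage, for the 7 lists (genes tested in brackets) and for all genes tested. In the Young Early panel 24 of 33 entry and transport genes were called higher, beside 15.2% of all genes.

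Between 7 days and 1 day in the Young IZ, 6.2% of all genes were called lower and 6.12% higher. Lower calls numbered 2 of 5 sensors and proteases (40.0%), 4 of 20 chaperones (20.0%), 2 of 21 degradation genes (9.52%), 5 of 31 of the PERK and ATF4 arm (16.1%) and 8 of 33 entry and transport genes (24.2%), and 0 of 15 oxidoreductases and 0 of 6 OASIS factors. Higher calls numbered 1 chaperone (5.0%) and 1 OASIS factor (16.7%). The medians ran from -0.81 for the sensors and proteases to 0.29 for the OASIS factors, beside 0.03 over all genes.

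Levels of several cell type markers differed between these groups. Summed over 9 of 12 listed genes, cardiomyocyte markers ran from 112840 to 131810 CPM in Young Early sham and from 31250 to 52947 in the IZ, in the Old Early pigs from 81889 to 92131 and from 29950 to 49494, and in the Old Late pigs from 88948 to 100110 and from 24481 to 37912. Fibroblast markers (9 of 9, such as COL1A1 and POSTN) ran from 1165 to 1363 CPM in Young Early sham and 1553 to 3627 in the IZ, from 1068 to 1690.3 in Old Early sham and 3146 to 3693 in the IZ, and from 1273 to 1585 in Old Late sham and 16908 to 20895 in the IZ. Macrophage markers (9 of 10) ran from 154 to 226 CPM in Young Early sham and 194 to 250.4 in the IZ, from 163 to 222 and 269.6 to 642 in the Old Early pigs, and from 127 to 187 and 711 to 931 in the Old Late pigs. Neutrophil markers (4 of 7 found, with MMP8 at 0 in all 3 libraries of Young Early sham and IZ) went from at most 0.571 CPM in Young Early sham to between 19.8 and 28.3 in the IZ, and from at most 0.958 to between 33.9 and 292 in the Old Early pigs. Markers of plasma and B cells, which carry high levels of these chaperones, ran from 53.0 to 68.8 CPM in Young Early sham (9 of 9 found, with POU2AF1, MS4A1 and PAX5 at 0) and from 52.2 to 64.6 in the IZ. In Old Early pigs they ran from 31.9 to 38.2 in sham and 46.9 to 79.8 in the IZ, and in Old Late pigs from 29.5 to 43.5 and 39.7 to 68.1, with 2 and 3 of the 6 tested called higher (0 higher and 1 lower in the Young Early IZ, 0 in the Young Late). Smooth muscle and pericyte markers (7 of 7) had 1, 5, 5 and 6 called higher in the 4 IZ comparisons in the order above and 1 lower in the Young Early, with sums of 606 to 729 CPM in sham and 1299 to 2252 in the IZ of the Old Early pigs. Endothelial markers (5 of 7) had 1, 4, 0 and 0 of 5 called higher and 0, 0, 2 and 1 lower, with 318 to 332 CPM and 589.8 to 1162 CPM in the Old Early pigs. T cell markers (5 of 6) had 0, 2, 2 and 4 of 5 called higher, at sums of at most 7.30 CPM in these IZ groups. Among all genes 15.2%, 19.5%, 17.2% and 25.1% were called higher in the 4 IZ comparisons, and 12.0%, 14.8%, 13.0% and 24.0% lower. Lists with only 1 marker called lay near these shares.

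Between Young Early and Young Late IZ, over which HSPA5, DNAJB9, HERPUD1 and XBP1 dropped, cardiomyocyte markers moved from the range of 31250 to 52947 CPM to that of 64491 to 87467 CPM, and fibroblast markers to between 4613 and 7850 CPM. Macrophage markers were higher (194 to 250.4 CPM, then 673 to 870), as were smooth muscle and pericyte markers (912 to 1196.5, then 1696 to 2337). Endothelial markers were lower (513 to 674 CPM, then 186 to 221), as were neutrophil markers (19.8 to 28.3, then 4.99 to 14.9). Plasma and B cell markers were lower (52.2 to 64.6 CPM, then 41.8 to 51.0) and T cell markers higher (1.42 to 3.31, then 3.94 to 4.06). Young Late sham held 85408 to 125370 CPM of cardiomyocyte markers, 715 to 1314 of fibroblast markers and 74.8 to 86.6 of macrophage markers. The part of these cell types in the results was not tested.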

How the data were processed

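Stranded TruSeq libraries of polyA RNA were prepared from 36 left ventricle samples and sequenced in pairs (NextSeq), per the labels' protocols. The tools named are featureCounts (Subread 1.5.1), STAR, Trimmomatic 0.36 and bcl2fastq 2.19.0.316, per the submitters' processing notes; the genome build, annotation release and strand setting are not given in the sources used here. The authors deposited a table of raw counts by gene, not normalized, as its whole numbers show and per the file headers. Symbols came from a reference table of pig gene names. Totals ran from 8.1 to 39.8 M counts, and counting error limits genes with few counts.

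Genes were filtered with filterByExpr (minimum count 10, minimum total 15), scaled with TMM and fitted with edgeR 4.0.16 in R 4.3.3 (quasi-likelihood, robust, 1 mean per group, 24 residual degrees of freedom), which tested 14537 genes. This fit treats IZ and BZ of a pig as independent. The zones were compared with each other over 24 libraries with the pig, taken from the sample titles (for 1 BZ library another label names a different pig), as a block (8 residual degrees of freedom, 14386 genes). Deviations of a pig's IZ and BZ from their group means correlated across genes at 0.45 to 0.67 in 9 pigs and at -0.20 to -0.04 in the Young Late pigs. In the Young Late pigs of replicates 1 and 3, IZ and BZ were prepared in different batches. The pairing rests on the animal labels. In all, 24 comparisons were adjusted by Benjamini-Hochberg over all genes. The script was tested on simulated counts.

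The fit was run in 2 ways, with and without a first estimate of dispersions per gene (estimateDisp), and the second was kept after the calls of both had been seen. Alternatives were DESeq2 1.42.0 size factors and test, no count filter, batch, RNA integrity, mitochondrially encoded genes left out, the compared groups alone, limma-voom (limma 3.58.1) with the pig as a random block, and each library left out. The genes and lists were chosen with earlier results of these data known. Named beside the members are, for each list and IZ comparison, the 2 strongest called rises and the 2 strongest called falls among genes whose mean log2 CPM is 0 or more, and the 5 genes most like HSPA5 at a mean log2 CPM of at least 1. Likeness to DDIT3, promoter motifs and protein ends, which were planned, were not analysed here.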

Additional observations from a re-analysis of the deposited data

Results flagged for a closer look

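In the IZ of pigs operated at 2 days, the response of 4 genes differed between 1 and 7 days by the test of the difference itself. The log2 difference (Late minus Early) was -1.98 for HSPA5, -1.41 for DNAJB9, -1.84 for HERPUD1 and -1.03 for XBP1. In the edgeR fits that left out each library in turn, HSPA5 ran from -2.20 to -1.67, DNAJB9 from -1.57 to -1.28, HERPUD1 from -2.06 to -1.51 and XBP1 from -1.15 to -0.90.

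At 1 day the edgeR difference between ages in the IZ response of DNAJB9 was -1.32 (Old minus Young, adjusted p = 0.0499). The call was lost in 10 of 12 fits without 1 library and under 7 of 9 alternatives, among them batch as a term (-1.32, 0.0548). At each age IZ and sham shared a batch, so a batch term could hardly move this difference. The sham level of DNAJB9 was also higher in Old than in Young pigs, by 1.41 on the log2 scale.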

How the results depend on the processing

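Of 45 calls of members over the 24 comparisons, 30 held without each library in turn, 33 held under all other alternatives run and 27 under all of them, and none reversed. In fits that left out 1 library, the number of members called ranged as follows. Against sham it was 6 to 7 in the Young Early IZ, 5 to 6 in the Old Early IZ, 0 to 4 in the Young Late IZ and 4 to 4 in the Old Late IZ, and in the same order 0 to 5, 4 to 5, 0 to 2 and 3 to 3 in the BZ. It was 1 to 4 between Young Early IZ and BZ and 0 between the zones elsewhere. For Old minus Young it was 0 to 2 in the Early IZ, 0 to 1 in the Late IZ, 0 to 2 in the Early BZ and 0 in the Late BZ, and 3 to 4 in Early sham and 1 in Late sham. For Late minus Early it was 3 to 4 in the Young IZ and 0 in the other zone and sham comparisons.

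Counts that moved by over 1.5 times under another setting were as follows. In the Young Early BZ (2 called) the count was 1 with DESeq2 size factors, no count filter, mitochondrially encoded genes left out or dispersions estimated first, 0 with RNA integrity, the groups alone or limma-voom with the replicate block, and 4 by DESeq2. For the Early IZ, Old minus Young (1), it was 0 with DESeq2 size factors, no filter, batch, RNA integrity, mitochondrially encoded genes left out, dispersions estimated first or limma-voom with the replicate block. It became 5 in the Young Late IZ (4 higher, and HERPUD1 lower) and 1 in the Young Late BZ by DESeq2, and 5 in the Old Late BZ with the groups alone. It became 1 for the Late IZ, Old minus Young, and for Young sham, Late minus Early, with mitochondrially encoded genes left out, the groups alone or DESeq2, 1 for the Late BZ, Old minus Young, by DESeq2, and 1 for the Old IZ, Late minus Early, with the groups alone. In Early sham (5) it was 2 with batch and 3 with RNA integrity. Between Young Early IZ and BZ (4) it was 2 with no replicate block and 0 with the groups alone. The cause was not tested, except that a fit of the groups alone has fewer samples.

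Estimating dispersions first, an alternative added after seeing the data, ended 3 calls: DNAJB9 in the Early IZ, Old minus Young (adjusted p = 0.0563), XBP1 in the Young Early BZ (0.0524) and HSP90B1 in Early sham (0.051). Over all genes it left 2 higher and 3 lower calls for the Early IZ, Old minus Young, against 78 and 55. These 3 calls therefore depend on a choice made with their values in view. Old Late BZ replicate 3 has conflicting animal labels. As a pig of its own it left 0 of all genes called between Old Late IZ and BZ, against 63 higher and 232 lower, and no member was called either way. Dropping the replicate block gave no member call in the Old Early, Young Late and Old Late pigs.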
